A study of Mus musculus with 8 samples.

Results

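A set of 10 genes commonly used as markers of tissue macrophages was followed in the distal trachea and carina of aging mice: Cd68, Csf1r, Cd14, Mrc1, Cd163, Adgre1, Mertk, Fcgr1, Lyz2 and Marco. Members were taken by gene symbol, as every probe set for which one of these 10 names is the only symbol in the platform annotation. This gave 14 probe sets of 45037 on the array and 10 genes of 18193 that have a probe set of their own. RNA came from female C57Bl/6 mice of 2 ages, 4 old animals at 14 months and 4 young animals at 2 months, with 1 Affymetrix Mouse Genome 430 2.0 array per mouse. The old mice are numbered 1, 2, 5 and 6 and the young mice 3, 4, 7 and 8. None of the mice was described as carrying a transgene or receiving a treatment, so the ages are the only difference between the groups that the labels give. The RNA is from whole dissected tissue, in which more cells of a type and more RNA per cell cannot be told apart.

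Macrophages live in the lamina propria and submucosa of the conducting airway as well as in the alveoli, where they take up particles, microbes and dying cells. Their survival depends on CSF1R, the receptor for CSF1 and IL-34, and their identity on transcription factors such as PU.1, encoded by Spi1. The markers cover different jobs of these cells. ADGRE1 (the F4/80 antigen) and CD68, a protein of late endosomes, are general markers. CD14 is the co-receptor through which bacterial lipopolysaccharide reaches TLR4. MRC1 (the mannose receptor, CD206), CD163 (which takes up hemoglobin bound to haptoglobin) and MARCO are scavenger or endocytic receptors. MERTK recognizes dying cells through the bridging proteins GAS6 and protein S, FCGR1 is the high-affinity receptor for IgG, and LYZ2 is the lysozyme of myeloid cells. Several of these are not exclusive to macrophages: Cd14 is also made by monocytes and neutrophils, and Lyz2 by neutrophils, monocytes and secretory cells of the airway.

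The 250 bases before the transcription start are shown for the 3 members whose window holds the 7 bases AGGAAGT or, read from the other strand, ACTTCCT, a motif of the kind bound by PU.1 and other Ets factors, and for Lyz1, the neighboring copy of Lyz2 that shares its sequence. The windows are from RefSeq on GRCm38.p6, are written 5′ to 3′ along the gene's strand, and carry the motif in capitals. They are chr2:14229164-14229413 (plus strand) for Mrc1, chr3:96293970-96294219 (minus strand) for Fcgr1, chr10:117282273-117282522 (minus strand) for Lyz2 and chr10:117292869-117293118 (minus strand) for Lyz1.
Mrc1: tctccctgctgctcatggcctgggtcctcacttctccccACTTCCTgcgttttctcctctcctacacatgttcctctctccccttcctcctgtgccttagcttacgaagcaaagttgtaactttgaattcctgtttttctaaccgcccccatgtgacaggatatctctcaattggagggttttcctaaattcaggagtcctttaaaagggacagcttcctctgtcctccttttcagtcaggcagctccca
Fcgr1: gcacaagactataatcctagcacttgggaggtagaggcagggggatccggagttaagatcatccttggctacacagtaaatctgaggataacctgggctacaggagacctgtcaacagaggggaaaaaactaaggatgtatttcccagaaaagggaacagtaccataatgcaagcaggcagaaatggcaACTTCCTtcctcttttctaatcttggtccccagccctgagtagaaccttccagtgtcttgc
Lyz2: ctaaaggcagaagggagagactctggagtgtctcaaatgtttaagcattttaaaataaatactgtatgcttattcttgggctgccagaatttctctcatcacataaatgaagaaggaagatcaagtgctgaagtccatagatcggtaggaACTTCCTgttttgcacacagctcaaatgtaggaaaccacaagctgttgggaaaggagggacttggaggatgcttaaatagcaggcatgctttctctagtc
Lyz1: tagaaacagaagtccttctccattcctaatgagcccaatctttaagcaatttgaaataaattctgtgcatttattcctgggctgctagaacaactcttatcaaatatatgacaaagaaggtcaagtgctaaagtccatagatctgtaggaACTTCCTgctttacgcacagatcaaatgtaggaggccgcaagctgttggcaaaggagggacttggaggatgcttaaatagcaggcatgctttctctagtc
The motif began 211 bases before the start of Mrc1, 61 before Fcgr1 and 100 before both Lyz2 and Lyz1. The Lyz2 and Lyz1 windows held the same base at 152 of 250 positions without gaps (60.8%). Of the 7 members with a window among those used here, 3 held the motif, against 2525 of 32851 windows of this length (7.69%). No window was available here for Csf1r, Cd14 and Adgre1. A match of letters is a description and was not tied to any measurement here.

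All arrays had been scaled to the same trimmed mean signal. Their median signals lay between 150 and 160, and pairs of arrays correlated at 0.951 to 0.958 within an age and 0.947 to 0.952 between ages over all probe sets on the log2 scale. The dissected tissue carried the leading transcripts of the conducting airway in all mice, with signals of 1854 to 2298 in old mice and 1465 to 1721 in young mice for Krt5 (basal cells), and over both ages of 2001 to 3104 for Foxj1 (multiciliated cells) and 25658 to 31083 for Scgb1a1 (secretory cells). Signals are in arbitrary units and compare a probe set between mice, not one gene with another.

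No macrophage marker passed the test of age across the array. After adjustment over all probe sets (limma with Benjamini-Hochberg adjustment, threshold 0.05) 0 of 14 member probe sets were higher and 0 lower in old mice, where 0.0533% of all probe sets were called higher and 0.0178% lower. At an unadjusted p below 0.05, 3 of 14 were higher and 0 lower, against a background of 5.76% higher and 5.41% lower. None reached the thresholds named in the methods, an unadjusted p below 0.05 together with a change of more than 2-fold, which 1.19% of all probe sets did upward and 0.802% downward. In 4 of 14 probe sets the old values all exceeded the young values and in 0 they all lay below, compared with 4.05% and 3.75% of all probe sets. By gene, read from the brightest probe set, 3 of 10 members were separated in this way with the old mice higher and 0 with the old mice lower, compared with 5.02% and 5.11% of all genes. Bright genes separate a little more often: among genes brighter than the median probe set the shares were 6.13% and 6.58%, and 6.81% were higher and 7.13% lower at an unadjusted p below 0.05. The fitted difference was positive in 13 of 14, where 48.9% of all probe sets were positive and 51.1% negative. Those 13 included both probe sets of Marco, whose signals were at the level of absent transcripts, and 3 of Csf1r. They also included Lyz2 at 0.0084 and the second Fcgr1 probe set at 0.023. The median difference was 0.17 on the log2 scale for the 14 member probe sets and -0.0062 for all probe sets, with a median standard error of 0.12 among the members. The 95% interval of the fold lay within 2-fold of no change for 12 of 14 probe sets, and within 1.5-fold for 9 of them. The 2 probe sets with wider intervals were those of Marco.

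**Figure D1:**
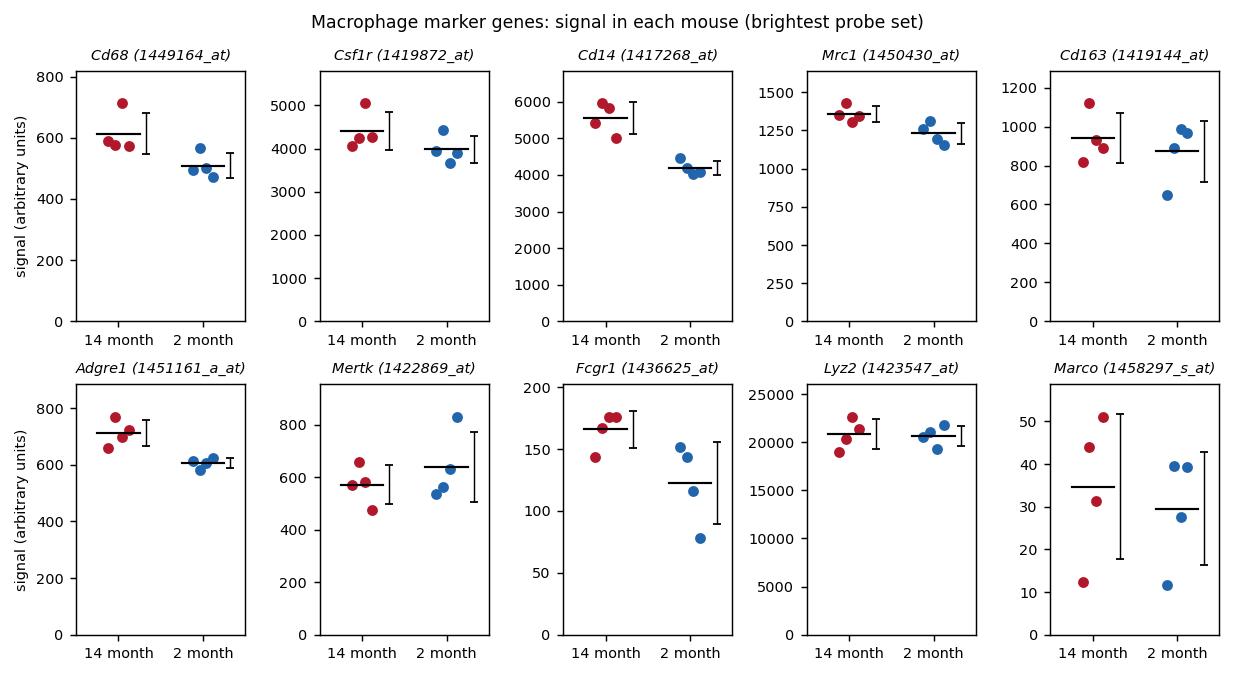
Signal (linear axis from 0, arbitrary units) of the brightest probe set of each of the 10 macrophage marker genes in 4 old (14 month, left) and 4 young (2 month, right) mice. Each point is a mouse, the horizontal line is the mean and the bar beside it the SD. Cd14, Adgre1 and Cd68 are the genes in which every old mouse sits above every young mouse, and the Lyz2, Cd163, Mertk and Marco points of both ages overlap.

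Cd14 (probe set 1417268_at) differed most clearly between the ages. Its signal was 5423, 5956, 5837 and 5013 in old mice 1, 2, 5 and 6 and 4452, 4185, 4031 and 4076 in young mice 3, 4, 7 and 8. Every old mouse was above every young mouse, and the mean was 5557 ± 429 in old mice and 4186 ± 189 in young mice (SD, n = 4 each). The log2 difference was 0.41 (SE 0.089), a 1.33-fold difference with a 95% interval of 1.15 to 1.53. It did not pass after adjustment (limma, adjusted p = 0.170). Cd14 was the only member whose call depended on the settings: the adjusted p was 0.0155 when the variance prior was allowed to follow signal and resist outlying probe sets, where 0.697% of all probe sets were called higher and 0.535% lower, and 0.0367 when only probe sets brighter than the median were tested, where 1.2% were called higher and 1.01% lower. The titles number the mice over both ages, and differences within numbers 1 to 4 and 5 to 8 are therefore given wherever they differed in sign and for the probe sets that separate the ages, although nothing names these as batches. For Cd14 the difference was 0.40 among mice 1 to 4 and 0.42 among mice 5 to 8.

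The other genes of the lipopolysaccharide receptor were measured beside it. Of 15 measured genes of this pathway 6 were higher at an unadjusted p below 0.05 and 0 lower, 11 were positive, and none passed after adjustment (median 0.11). Among all genes 6.51% were higher and 6.27% lower at that threshold and 49% were positive. After adjustment 0.077% of all genes were higher and 0.022% lower. These are the shares for each gene list that follows. Tlr4, the signaling receptor, had signals of 598 to 769.7 in old mice and 505 to 557 in young mice, a log2 difference of 0.37 (SE 0.10, limma, adjusted p = 0.251). The ages did not overlap for that probe set, but the mean of all Tlr4 probe sets gave -0.16, so its direction was not settled. Ly86, which pairs with a relative of TLR4, was at 1451 to 1866 in old mice and 1137 to 1363 in young mice (log2 difference 0.38). Ly96, the protein that holds lipopolysaccharide on TLR4, was at 418 to 540.3 in old mice and 379.5 to 501 in young mice, ranges that overlapped.

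Among the general markers, Adgre1 and Cd68 were apart between the ages by small amounts. Adgre1 (1451161_a_at) had signals of 658, 769.8, 698 and 722 in old mice 1, 2, 5 and 6 and 614, 583, 608 and 624 in young mice 3, 4, 7 and 8. The mean was 712 ± 46.6 in old mice and 607 ± 17.3 in young mice (SD, n = 4 each). The log2 difference was 0.23 (SE 0.082, 95% interval 0.037 to 0.42, limma, adjusted p = 0.372), and it was 0.25 among mice 1 to 4 and 0.21 among mice 5 to 8.

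Cd68 (1449164_at) had signals of 589.9, 576, 712 and 574 in the old mice and 494, 567, 499.9 and 473 in the young mice, in the same order. No old mouse was below a young one, although old mouse 6 and young mouse 4 were close, and old mouse 5 stood above the other old mice. The mean was 613 ± 66.7 in old mice and 508 ± 40.5 in young mice (SD, n = 4 each), a log2 difference of 0.27 (SE 0.11, 95% interval 0.017 to 0.52, limma, adjusted p = 0.417). It was 0.14 among mice 1 to 4 and 0.39 among mice 5 to 8.

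Csf1r, the receptor that macrophages need to survive, was read by 3 probe sets. The brightest (1419872_at) gave 4066, 4236, 5045 and 4277 in old mice 1, 2, 5 and 6 and 3932, 4426, 3674 and 3902 in young mice 3, 4, 7 and 8. Young mouse 4 was above 3 of the old mice, and the log2 difference of 0.14 (SE 0.10) did not pass (limma, adjusted p = 0.660). It was -0.0075 among mice 1 to 4 and 0.29 among mice 5 to 8. The dimmer 1423593_a_at gave 756, 779, 905 and 801 in the old mice and 695, 736, 622 and 742 in the young mice, without overlap, for a log2 difference of 0.21 (SE 0.099, limma, adjusted p = 0.484), which was 0.10 among mice 1 to 4 and 0.33 among mice 5 to 8. The third, 1419873_s_at, ranged over 1410.2 to 1980.4 in old mice and 1370.0 to 1636 in young mice, with a log2 difference of 0.11 (SE 0.13). The 3 probe sets gave the same sign, and only one of them separated the ages.

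Of 17 measured genes of the CSF1 pathway and myeloid transcription factors, 3 were higher and 0 lower at an unadjusted p below 0.05, and none passed after adjustment (median 0.22). The ligands of CSF1R were near the members in size: Csf1 was at 1004 to 1175 in old mice and 837 to 1068 in young mice (log2 difference 0.22), and Il34 at 191 to 219 in old mice and 153 to 193 in young mice (0.26). Spi1 was at 182 to 268 in old mice and 157 to 232 in young mice, with overlap (0.22). Csf3r, the receptor for the neutrophil growth factor G-CSF, was at 133 to 254 in old mice and 17.6, 63.0, 32.2 and 130.4 in young mice (1.95, SE 0.59, limma, adjusted p = 0.294). All but 1 of these young values are as low as those of transcripts absent from these mice, described with Marco, and the difference was 1.23 with signals below 64 raised to 64.

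**Figure D2:**
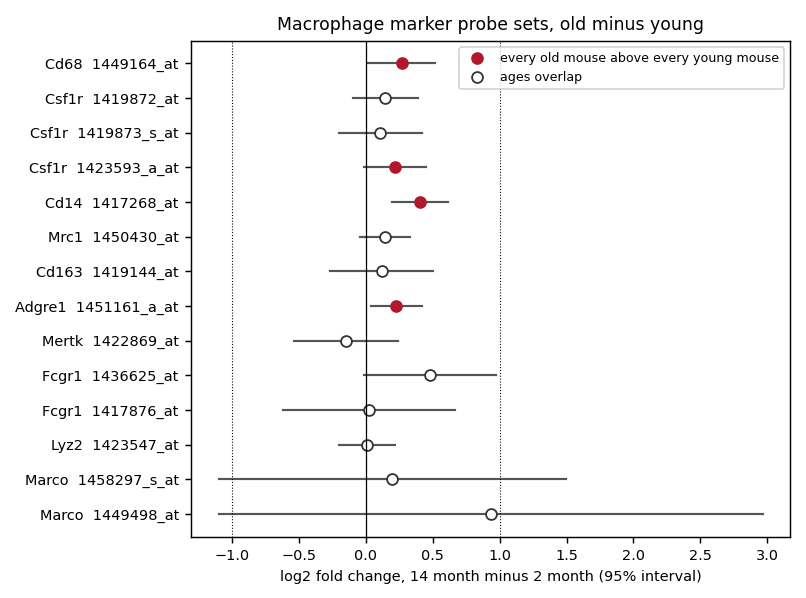
Log2 fold change (old minus young) of all 14 macrophage marker probe sets with 95% intervals from limma, over 4 mice of each age. Filled red points are the 4 probe sets with every old mouse above every young mouse, and dotted lines mark a 2-fold change, with 13 points to the right of 0 and the intervals of 12 probe sets inside the dotted lines.

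The endocytic receptors differed little. Mrc1 (1450430_at) had signals of 1350.0, 1426, 1307 and 1342 in old mice 1, 2, 5 and 6 and 1259.9, 1314, 1196 and 1155 in young mice 3, 4, 7 and 8. Only old mouse 5 and young mouse 4 kept the ages from separating, and the log2 difference was 0.14 (SE 0.081, limma, adjusted p = 0.569). Cd163 (1419144_at) had signals of 819.6, 1119, 933 and 891 in the old mice and 647, 891, 985 and 966 in the young mice. The lowest value was young mouse 3, the others overlapped, and the log2 difference was 0.12 (SE 0.17, limma, adjusted p = 0.840). It was 0.33 among mice 1 to 4, -0.097 among mice 5 to 8, and -0.019 without young mouse 3.

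Marco was not measurable above the level of absent transcripts. Its brighter probe set, 1458297_s_at, gave 12.3, 43.9, 31.4 and 51.1 in old mice 1, 2, 5 and 6 and 11.7, 39.5, 27.6 and 39.4 in young mice 3, 4, 7 and 8. The other, 1449498_at, ranged over 9.13 to 64.7 in old mice and 3.42 to 42.8 in young mice. In the same female mice the 13 probe sets of 6 Y-linked genes, transcripts that these animals lack, read 0.599 to 74.3 with a median of 24.5. All Marco values fell in that range, and its fitted log2 differences of 0.20 (SE 0.56) and 0.94 (SE 0.87) describe signals in it. MARCO is a receptor of alveolar macrophages among other cells. Of 15 measured genes of alveolar macrophages 2 were higher and 0 lower at an unadjusted p below 0.05, and 8 were positive (median 0.061). Pparg (-0.26) and Fabp4 (-0.10) were negative and Car4 differed little (0.072, SE 0.36). Siglecf, at 11.3 to 39.5 over both ages, was in the Y-linked range. Atp6v0d2, a proton pump subunit, was at 193 to 260.4 in old mice and 94.3 to 167 in young mice (2-fold, with a 95% interval of 1.46 to 2.74, and a log2 difference of 2.04 with the mean of its probe sets), and Itgax (CD11c), which dendritic cells also carry, at 270.4 to 398 in old mice and 145 to 235 in young mice (0.93, SE 0.19), and neither passed (limma, adjusted p = 0.144 and 0.156).

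**Figure D3:**
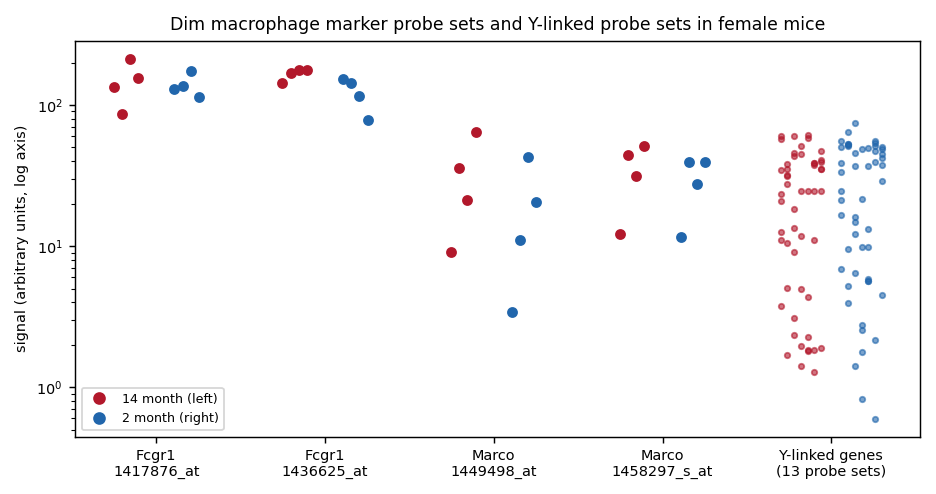
Signal (log axis, arbitrary units) of the Fcgr1 and Marco probe sets and of 13 Y-linked probe sets in 4 old (left, red) and 4 young (right, blue) female mice, 1 point per mouse and probe set. The Y-linked points reach up to 74.3, the Marco points up to 64.7 lie among them, and the lowest Fcgr1 point is at 78.2.

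Other scavenger and endocytic receptors were measured as well. Of 18, 6 were higher and 0 lower at an unadjusted p below 0.05 and 14 were positive (median 0.24), with none called after adjustment. Cd209d, a C-type lectin of the DC-SIGN family, was at 178 to 268 in old mice and 88.2 to 125 in young mice (0.91, SE 0.17, limma, adjusted p = 0.133). Cd209a of the same family was at 579 to 746 in old mice and 419.8 to 557 in young mice (0.47, SE 0.13, limma, adjusted p = 0.273).

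Mertk (1422869_at) was the member whose fitted difference was negative. Its signals were 569, 658, 582 and 476 in old mice 1, 2, 5 and 6 and 535, 564, 630.0 and 830.2 in young mice 3, 4, 7 and 8. The highest was young mouse 8 and the lowest old mouse 6, with the rest intermixed, and the log2 difference was -0.15 (SE 0.17, 95% interval -0.54 to 0.24, limma, adjusted p = 0.788). It was 0.16 among mice 1 to 4 and -0.46 among mice 5 to 8. Of 20 measured genes for the clearance of apoptotic cells, 3 were higher and 1 lower at an unadjusted p below 0.05, with a median of -0.034. The ligands of MERTK differed little: Gas6 was at 3089 to 3784 in old mice and 3804 to 4071 in young mice (log2 difference -0.17, with the old mice all below the young mice), and Pros1 at 1265 to 1341 in old mice and 1206 to 1289.8 in young mice (0.069). C1qa, a chain of complement C1q that macrophages make, was at 2372 to 2732 in old mice and 1872 to 1998 in young mice (0.39, SE 0.083, limma, adjusted p = 0.158). Megf10, another engulfment receptor, was at 80.3 to 98.8 in old mice and 152 to 189.5 in young mice (-0.91, SE 0.12, limma, adjusted p = 0.0635).

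Fcgr1 was dim and its 2 probe sets gave differences of unlike size. The brighter, 1436625_at, gave 144, 167, 176 and 176 in old mice 1, 2, 5 and 6 and 152, 143, 116 and 78.2 in young mice 3, 4, 7 and 8. Old mouse 1 lay below young mouse 3, and the log2 difference was 0.48 (SE 0.21, 95% interval -0.017 to 0.98, limma, adjusted p = 0.462). It was 0.074 among mice 1 to 4 and 0.89 among mice 5 to 8. The other, 1417876_at, ranged over 86.0 to 213 in old mice and 114 to 175 in young mice and gave 0.023 (SE 0.28), with -0.32 among mice 1 to 4 and 0.37 among mice 5 to 8. Of 10 measured Fc gamma receptor and signaling genes, 3 were higher and 0 lower at an unadjusted p below 0.05 (median 0.18). Fcer1g, the signaling chain that FCGR1 shares with other Fc receptors, was at 1118 to 1235 in old mice and 636 to 829 in young mice (0.68, SE 0.11, limma, adjusted p = 0.0970). Fcgr3, a low-affinity IgG receptor, was at 486 to 698 in old mice and 261 to 424 in young mice (log2 difference 0.74, limma, adjusted p = 0.205).

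Lyz2 did not separate the ages. Its probe set 1423547_at had signals of 18962, 20335, 22653 and 21369 in old mice 1, 2, 5 and 6 and 20592, 21056, 19310.2 and 21781 in young mice 3, 4, 7 and 8. The lowest and the highest value were both from old mice. The log2 difference was 0.0084 (SE 0.089), with a 95% interval of the fold of 0.871 to 1.16 (limma, adjusted p = 0.982). It was -0.085 among mice 1 to 4 and 0.10 among mice 5 to 8, and leaving out single mice gave between -0.033 and 0.053. Lyz1, whose transcript is nearly identical and whose probe sets may read both genes, gave -0.07 for 1436996_x_at, -0.31 for 1439426_x_at (SE 0.15, limma, adjusted p = 0.504) and 0.35 for the dimmer 1450822_at (SE 0.23, limma, adjusted p = 0.628), which is not marked as cross-hybridizing. Its probe sets therefore had both signs. Of 21 measured lysosomal genes 2 were higher and 0 lower at an unadjusted p below 0.05, with a median of -0.017. Ctss, a protease of antigen-presenting cells, was at 4162 to 4946 in old mice and 2778 to 3124 in young mice (0.61, SE 0.089, limma, adjusted p = 0.0728).

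The mice did not rank alike across the markers. Over the brightest probe set of each of the 10 genes, the highest value was in an old mouse for 9, namely old mouse 2 for 4 genes, old mouse 5 for 3 and old mouse 6 for 2, and in young mouse 8 for Mertk. The lowest was in young mouse 8 for 3 genes, in young mice 3 and 7 for 2 each, in young mouse 4 for 1 and in old mice 1 and 6 for 1 each. Leaving out Marco, whose values have no reliable order, took 1 highest value from old mouse 6 and 1 lowest value from young mouse 3.

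Other genes of resident macrophages were mostly positive too. Of 19 other measured genes of resident macrophages, 6 were higher and 0 lower at an unadjusted p below 0.05, and 15 were positive (median 0.29, against -0.0047 for all genes). Among all genes 6.51% were higher and 6.27% lower at that threshold, 49% were positive and 51% negative, and 0.077% were higher and 0.022% lower after adjustment. Mpeg1, which encodes a pore-forming protein, was at 2143 to 2852 in old mice and 1304 to 1754 in young mice (0.74, SE 0.14, limma, adjusted p = 0.131), and Ms4a7 at 433 to 609 in old mice and 281 to 325 in young mice (0.74, SE 0.12, limma, adjusted p = 0.101). The negative genes of this list were F13a1 (-0.26), Gas7 (-0.094), Cbr2 (-0.085) and Folr2 (-0.075). Of 14 measured monocyte genes 3 were higher and 1 lower (median 0.15). Plac8 was at 2667 to 3232 in old mice and 1675 to 2750.2 in young mice (0.56), while Hp, the haptoglobin that CD163 clears, was at 3599 to 5229.8 in old mice and 6231 to 8018 in young mice (-0.56).

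Genes of macrophage activation had positive medians. Of 18 measured genes of proinflammatory activation 6 were higher and 0 lower at an unadjusted p below 0.05 (median 0.37), and of 18 of alternative activation 6 were higher and 0 lower (median 0.42). Among the proinflammatory genes counted higher, Nos2 and Il23a had all signals within the range of the Y-linked probe sets, as did Cd200r1 among the alternative ones, and the proinflammatory median was 0.19 and 0.095 with signals below 32 and 64 raised to those floors. Cd200r1 reached 71.9 in old mouse 1, which lay in that range only through the Sry probe set described with Marco. Of the 6 alternative genes counted higher, 4 had at least 1 value in that range. The alternative activation median was 0.25 to 0.42 over the settings other than leaving out mice. Ptgs2, the inducible cyclooxygenase, was at 212 to 515 in old mice and 97.9 to 146 in young mice (1.37, SE 0.27, limma, adjusted p = 0.148). Il1b was at 225 to 338 in old mice and 127 to 203 in young mice (0.85, SE 0.19, limma, adjusted p = 0.176), and the chemokine Ccl8 at 641 to 1639.8 in old mice and 306 to 426 in young mice (1.36, SE 0.29, limma, adjusted p = 0.158). None of these genes is made by macrophages alone.

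Genes of other leukocytes were read beside the macrophage markers. All 12 pan-leukocyte genes were positive and 9 were higher at an unadjusted p below 0.05 (median 0.52), with summed signals of 9537 to 12953 in old mice and 6903 to 8207 in young mice. The summed signal of the 10 members was 32594 to 37975 in old mice and 31077 to 33924 in young mice, of which Lyz2 made up 57.6% to 64.2%, and without Lyz2 it was 13521 to 15321 in old mice and 11767 to 12712 in young mice. Such sums add unlike probe sets and only compare mice. Itgb2 (the CD18 integrin) was at 726 to 930.1 in old mice and 410.0 to 502 in young mice (0.86, SE 0.11, limma, adjusted p = 0.0607), and Ptprc (CD45) at 1702 to 2432 in old mice and 1163 to 1433 in young mice (0.70, SE 0.15, limma, adjusted p = 0.158). Medians were 0.73 for 9 B cell genes, 0.97 for 8 plasma cell genes and 0.54 for 11 T cell genes. They were 0.38 for 13 dendritic cell genes and 0.44 for 11 neutrophil genes, against 0.039 for 10 mast cell genes. For 4 red blood cell genes the median was 0.58, with 1 gene higher and 1 lower at an unadjusted p below 0.05. That median was 0.23 to 0.96 without single mice and 0.15 to 0.58 in the other settings. The neutrophil median was -0.065 without old mouse 5. With a floor of 64 the T cell median was 0.10 and the dendritic cell median 0.18, which was 0.20 without young mouse 4. Jchain of plasma cells was at 3735 to 14016 in old mice and 127 to 730.3 in young mice (4.48, SE 0.61, limma, adjusted p = 0.0679). The neutrophil gene Cd177 was the one listed gene that rose past the adjusted threshold, at 823 to 1047 in old mice and 375 to 471 in young mice (1.15, SE 0.12, limma, adjusted p = 0.0375). The call was lost without any single mouse (limma, adjusted p = 0.0586 to 0.124) and with mouse numbers as a block (limma, adjusted p = 0.0771). Of 11 neutrophil genes 4 were higher and 1 lower at an unadjusted p below 0.05, and 6 were positive. S100a9, an abundant protein of neutrophils, was at 184 to 489.9 in old mice and 59.3 to 90.3 in young mice (1.98, limma, adjusted p = 0.107), with young values partly in the Y-linked range. The lower gene was Camp (log2 difference -1.38), with all its signals in that range. The summed signal of the neutrophil list, most of it from lactoferrin (Ltf), which airway glands also make, was 19883 to 24875 in old mice and 19725 to 21958 in young mice, and that of the monocyte list 21894 to 23728 in old mice and 22056 to 26099 in young mice. The part of these other cells in the macrophage marker values was not tested.

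Set against Ptprc on the same array, 8 of 14 member probe sets had all old mice below all young mice. Ptprc itself was 0.70 higher in old mice on the log2 scale, which lowers this ratio for every probe set. This ratio was chosen after the values were seen. Of all probe sets 49% were likewise below all young mice, and the median of the log2 ratio differed by -0.53 for the members and -0.71 for all probe sets, so the count is near the background.

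**Figure D4:**
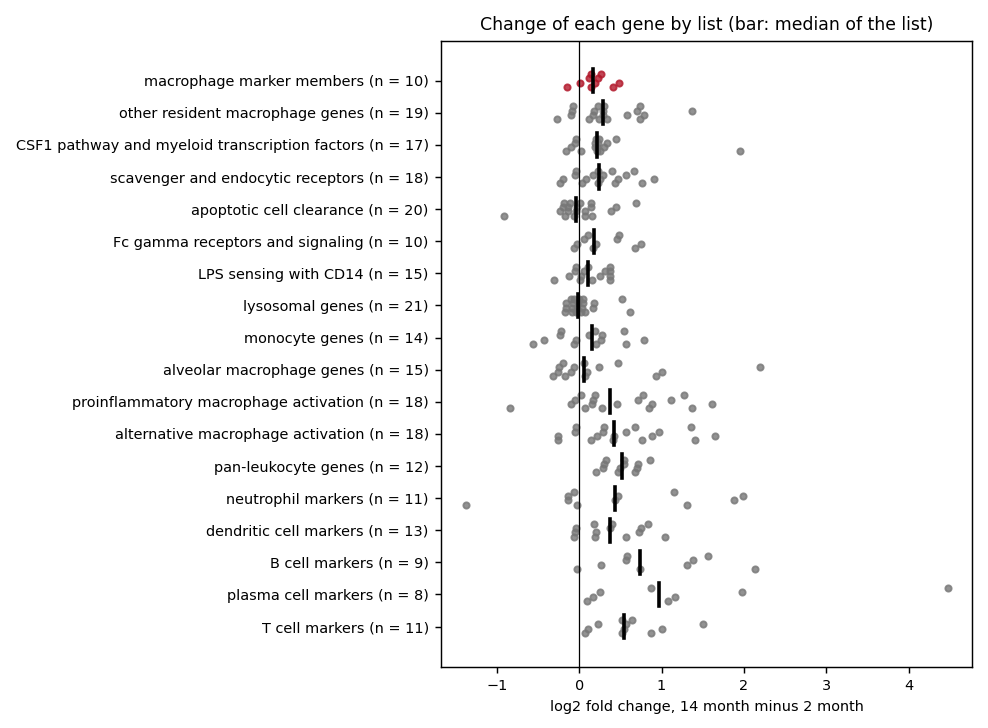
Log2 fold change (old minus young, brightest probe set) of each gene in 18 lists, 1 point per gene, with a bar at the median of the list. The macrophage markers on top (red, median 0.17) lie closer to 0 than the pan-leukocyte (0.52), B cell (0.73) and plasma cell (0.97) genes.

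Tissue around the airway was also followed. Of 9 lung parenchyma genes 2 were higher at an unadjusted p below 0.05 (median 0.11), and their summed signal was 36671 to 38458 in old mice and 32371 to 35969 in young mice. Slc34a2 of alveolar type II cells was at 422 to 565 in old mice and 351 to 405 in young mice (0.37, SE 0.11, limma, adjusted p = 0.288). Medians were 0.062 for 9 lymph node and thymus genes, -0.16 for 8 adipose genes, 0.39 for 7 thyroid and esophagus genes, -0.030 for 14 airway epithelial genes and -0.18 for 10 cartilage and muscle genes, none of which had a gene past the adjusted threshold. In the airway epithelial list 3 of 14 genes were higher at an unadjusted p below 0.05 with the ages apart. They were the keratins Krt5 (0.31, SE 0.10, limma, adjusted p = 0.335), Krt8 (0.33, SE 0.10, limma, adjusted p = 0.316), at 7656 to 9823 in old mice and 6263 to 7275 in young mice, and Krt14 (2.21, SE 0.52, limma, adjusted p = 0.204), at 57.0 to 222 in old mice and 13.4 to 48.3 in young mice, where the young values are in the Y-linked range. The part of the tissue dissected in the marker values was not tested.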

How the data were processed

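Total RNA of distal trachea and carina from 8 female mice was hybridized to 8 arrays. The methods name robust multichip normalization in Partek Genomics Suite 6.5. The deposited values are signal intensities on a linear scale, with a mean of 500.002 on every array once the top and bottom 2% were trimmed, whereas robust multichip values are usually log2, so how the authors reached the deposited scale is not settled. Depth has no counterpart on arrays, and 4 mice per age limit the precision.

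Signals were taken to log2 with no floor or filter, and 64 control probe sets of 45101 were left out. Age was fitted for all 45037 others with lmFit and eBayes of limma 3.58.1 in R 4.3.3, with Benjamini-Hochberg adjustment and a threshold of 0.05. The methods name a two-way ANOVA whose second factor is not given in the sources used here, so age alone was fitted. In the platform annotation 34945 probe sets had 1 symbol, 932 several and 9160 none, and genes were taken only from the first. A gene's value is its brightest probe set. The fit was tested on simulated data with changes of 2-fold or more put into probe sets brighter than the median. That run does not show whether differences as small as those of the members would be found. The labels do not say more of how the mice were housed or processed. The methods name several commercial sources of mice, which were kept after arrival in a single room under the same barrier conditions. They do not give the source of the mice used for the arrays. A shared supplier, day or cage cannot be seen.

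Members and 26 other gene lists were chosen with earlier results of these data known. All members are named, and of each other list up to 3 genes with the smallest p. Lyz1, the Y-linked genes and the leading airway markers are named as references. Csf1, Gas6, Pros1, Ly96, Spi1 and Ltf for their roles and Nos2, Il23a and Cd200r1 for their low signals were added after their values were seen. Camp was added in the same way, as the neutrophil gene that was lower. Pparg, Fabp4, Car4, Siglecf, F13a1, Gas7, Cbr2 and Folr2 were added too, to show genes of their lists other than those with the smallest p. Alternatives were leaving out each mouse, an unmoderated ANOVA, a trended and robust prior, array weights, probe sets brighter than the median, quantile and median normalization, floors of 32 and 64, the mouse numbers as a block, no _x_at or _s_at probe sets, and values per gene. The ratio to Ptprc and the counts per list under the trended prior were added after seeing the data.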

Additional observations from a re-analysis of the deposited data

Results flagged for a closer look

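Among 70 probe sets of the genes named by the rule, 140 groups of 4 mice were checked for a mouse far from the other 3, and 9 had one. Chance gives about 1 in 20 such groups. Cd68 in old mouse 5 was 712, with the other old mice at 574 to 589.9. Low values in old mice were 1963 for the lysosomal gene Ctsa in old mouse 1 (others 2147 to 2161), 225 for Il1b in old mouse 1 (others 325 to 338), 270.4 for Itgax in old mouse 2 (others 389 to 398) and 505 for Socs3, a feedback inhibitor of cytokine signaling, in old mouse 5 (others 651 to 669.8). Young mouse 7 was high for Hp at 8018 (others 6231 to 6425) and low for Krt5 at 1465 (others 1681 to 1721) and Scgb1a1 at 26941 (others 30792 to 30905). Young mouse 4 was high for the dendritic cell gene Xcr1 at 103 (others 88.1 to 90.3).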

How the results depend on the processing

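The members gave 0 calls after adjustment in 18 of 20 alternatives, with 1 probe set higher (Cd14) under the trended and robust prior and 1 (Cd14) among probe sets brighter than the median, and 0 lower in all 20. Probe sets with every old mouse above every young mouse numbered 3 to 6 in the 20 alternatives, and 4 to 6 with a mouse left out. Fewer mice separate more easily, and the share of all probe sets was counted only with all 8 arrays (4.05%). These counts are therefore no measure of stability. The median of the member probe sets was 0.13 to 0.21. Set against Ptprc, 0 member probe sets were above and 8 below, beside 0.209% and 49% of all probe sets. Of 198 alternative values of member genes 190 kept their direction and side of the threshold, 6 reversed and 2 passed it. Settings that change only the variance model or the probe sets tested leave the difference of a probe set as it was. Its direction could not change there, so this count is no measure of stability. Without old mouse 5, old mouse 6 or young mouse 7, Lyz2 was -0.033, -0.0049 and -0.024 (range without single mice -0.033 to 0.053). Without old mouse 6 or young mouse 3 Marco was -0.052 and -0.20 (range -0.20 to 0.63), and Cd163 was -0.019 without young mouse 3 (range -0.019 to 0.18).

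Over all probe sets, calls numbered 24 higher and 8 lower in the fit as reported. They were 314 and 241 with the trended and robust prior, 270 and 227 among probe sets brighter than the median, 131 and 101 with a floor of 32, 69 and 60 with a floor of 64, 67 and 33 with the brightest probe set over genes, 15 and 4 without _x_at and _s_at probe sets, 7 and 0 with mouse numbers as a block, and 0 and 0 in an unmoderated ANOVA. The mean of probe sets over genes gave 46 higher. Leaving out single mice gave 0 to 12 higher and 0 to 6 lower, with 0 of either kind without old mouse 1 or young mouse 7. The cause of these shifts was not tested. Of 56 list genes followed over the settings, Cd177 passed in the fit as reported. With the trended and robust prior 24 passed, and 0 with the block, the unmoderated ANOVA or any mouse left out. With that prior 3 of 19 other resident macrophage genes, 3 of 12 pan-leukocyte genes and 4 of 11 neutrophil genes were called higher. It called 0.697% of all probe sets higher and 0.535% lower. Of 20 apoptotic cell clearance genes 3 were called higher and 1 lower, and of 14 monocyte genes 0 higher and 1 lower. Of 11 T cell genes and 13 dendritic cell genes 0 were called.

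Without single mice Foxj1 was -0.14 to 0.049 and Col2a1, the collagen of cartilage, -0.40 to 0.087. Foxj1 turned to 0.049, 0.0058 and 0.040 without old mouse 2, young mouse 3 or young mouse 7, and Col2a1 to 0.0023 and 0.087 without old mouse 5 or young mouse 4. Acta2 of smooth muscle turned to 0.024 with quantile normalization and 0.16 with the mean of probe sets, and Tlr4 to -0.16 with the mean of probe sets. Of 338 alternative list medians 328 moved by less than their spread. Without single mice the T cell median reached 0.69 (without young mouse 7), and that of thyroid and esophagus genes 0.65 (without old mouse 6). No paired analysis was possible because the ages share no mouse number. Signals in the range of Y-linked genes limit Marco and, of 90 other listed genes higher at an unadjusted p below 0.05, 23 with at least 1 value there and 3 with all values there.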
